A study of Macaca mulatta with 10 samples.

Results

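Liver-enriched transcription factors were followed in liver of 10 rhesus macaques (Macaca mulatta), 5 brain-dead donors and 5 living donors that served as controls. On a 1-colour array with 52865 probe sets, 9 factors were looked for by symbol: CEBPA, CEBPB, CEBPD, HNF4A, FOXA1, FOXA2, FOXA3, ONECUT1 and PROX1. A probe set counted as a member when the platform annotation gave it exactly 1 symbol and that symbol was one of these. The rule found 14 probe sets of 8 of the 9 genes, and no probe set carried the symbol HNF4A, which is not analysed here. All 14 lay above the array median often enough to be tested, so no member was lost to the filter on low signals.

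Brain-dead animals had a balloon catheter inflated outside the dura and were kept for 6 h per the sample labels, or 5 h per the design text, with lactated Ringer's and with arginine-vasopressin, dopamine or both. Control animals were sedated, anaesthetised and mechanically ventilated for 1 h, so drugs and time under ventilation changed together with brain death and cannot be told apart from it. The control group held 3 females and 2 males aged 16, 10, 4, 20 and 10 years. The brain-dead group held 2 females and 3 males aged 7, 18, 7 and 7 years, with no age given for animal 3. Strain and genotype are not given in the sources used here. In both groups the organ was flushed in situ with UW solution before recovery. Each animal gave 1 array, and animals are named below by their number within a group.

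CCAAT/enhancer-binding proteins (C/EBPs) are basic leucine zipper factors that bind DNA as dimers. CEBPA keeps the adult hepatocyte in its resting, metabolic state and drives genes of gluconeogenesis, urea synthesis and plasma proteins, whereas CEBPB and CEBPD act in the acute-phase response and are regulated by cytokines such as IL-6. The FOXA proteins are forkhead factors that open liver chromatin, ONECUT1 (HNF6) is a cut-homeodomain factor of liver and bile duct, and PROX1 is a prospero-type homeobox factor of hepatocytes that also marks lymphatic endothelium.

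CEBPA was the one factor of the 8 that changed at the threshold used, a p under 0.05 from limma after Benjamini-Hochberg adjustment over all probe sets tested. Its 3 probe sets fell 2.34-fold to 2.47-fold in the brain-dead animals. FOXA1 had a change of nearly the same size (-1.19 on the log2 scale) and did not pass. FOXA2 and CEBPD were about as much above the controls as each other (0.84 each) and did not pass, and CEBPB lay at the control level on its brighter probe set (0.02). Of the 14 probe sets, 3 fell, 0 rose and 11 did not pass, where over all 26653 probe sets tested 6.10% changed, 3.39% lower and 2.72% higher. The 3 that fell are all of CEBPA and are not separate events. Counted by gene, 1 of 8 fell, where 3.87% of all 9835 genes did. At an unadjusted p under 0.05 in limma, 4 member probe sets lay lower, the 3 of CEBPA and that of FOXA1, and 2 higher. Such p-values were common among all probe sets tested. ONECUT1, at an unadjusted p of 0.0515 in limma, ranked only 6402nd lowest of the 26653. Fewer than 6402 probe sets thus had an unadjusted p under 0.05, and their directions were not counted. The unadjusted counts given for the lists below stand against that background. The groups did not overlap in 0 of the 14 probe sets, against 6.93% of all probe sets tested.

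**Figure D1:**
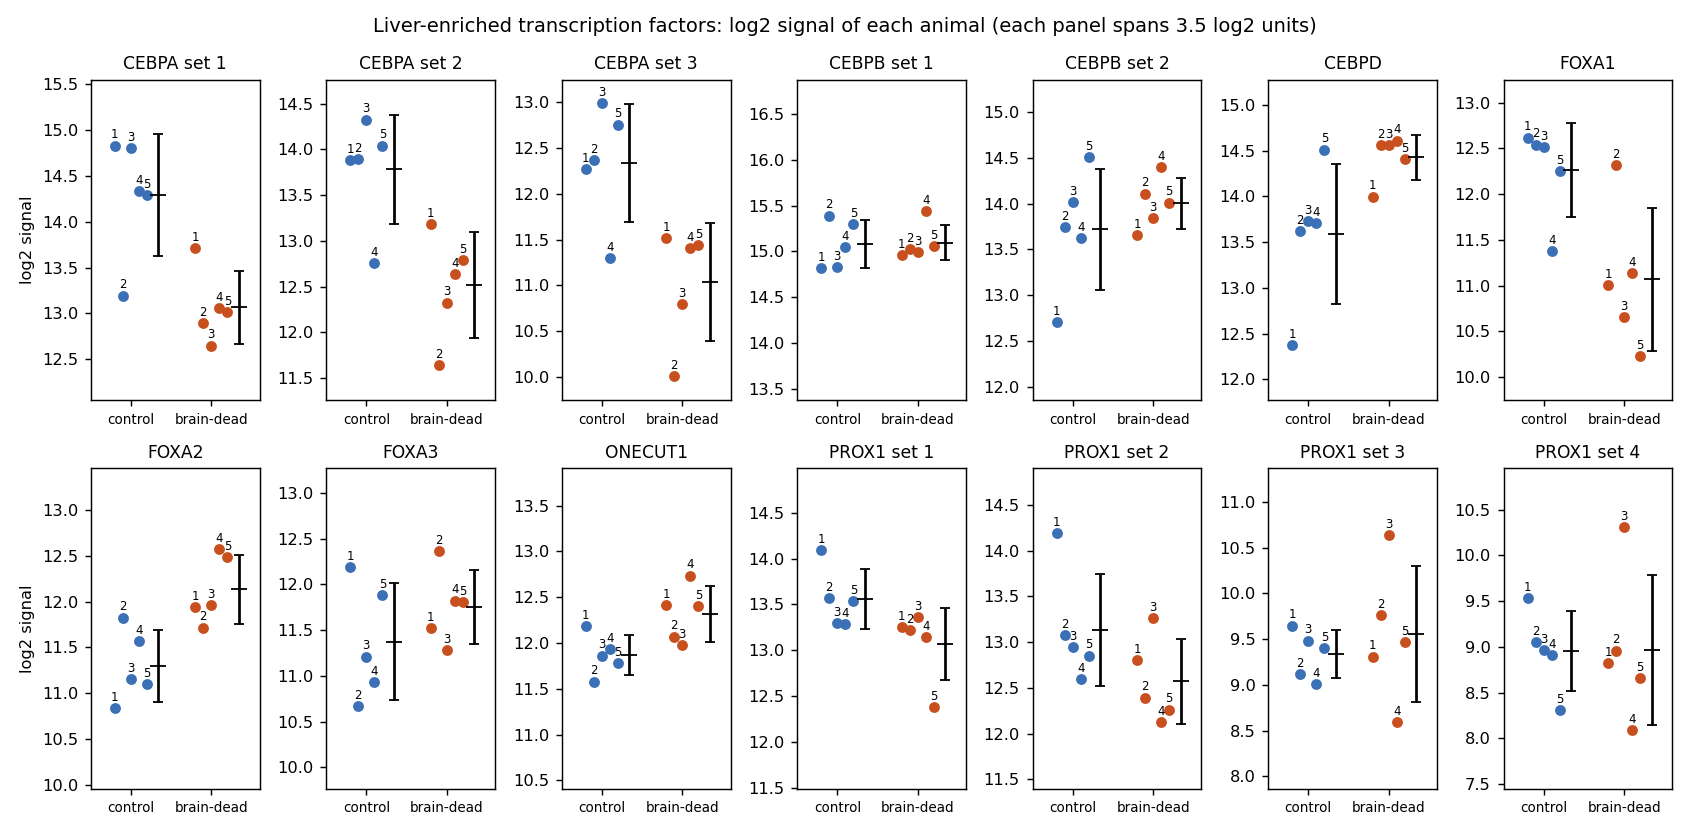
Log2 signal (y axis) of each animal for the 14 probe sets of the 8 factors, controls in blue and brain-dead animals in orange with the animal's number above the point, and the group mean with its SD (n = 5) as a black bar. Every panel spans the same range of log2 units, and levels are not comparable between panels. CEBPA lies lower in the brain-dead animals on all 3 of its panels, with control animal 2 low on set 1 and control animal 4 low on sets 2 and 3.

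The probe set with the highest mean signal of CEBPA (set 1) gave signals of 29157, 9358, 28586, 20718 and 20059 in control animals 1 to 5 and of 13459, 7625, 6416, 8519 and 8246 in brain-dead animals 1 to 5. Control animal 2 lay below brain-dead animal 1, and the other 4 controls lay above all brain-dead animals. CEBPA fell by 1.23 ± 0.31 on the log2 scale (SE, n = 5 animals per group, 95% interval -1.89 to -0.56, limma with Benjamini-Hochberg, adjusted p = 0.0351), a 2.34-fold difference. The change was larger than the spread between animals, 0.66 (SD) in controls and 0.40 in brain-dead animals. The call ended when 1 of control animals 1, 3 and 5 or of brain-dead animals 2, 3, 4 and 5 was left out (limma with Benjamini-Hochberg, adjusted p from 0.0556 to 0.0885), and with sex in the model (0.0502). Across 23 alternatives the change stayed between -1.50 and -1.09, with an adjusted p from 0.0151 to 0.112 (limma, Benjamini-Hochberg).

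The other probe sets of CEBPA share 1 source sequence in the annotation, which differs from that of set 1, so they are not separate from each other. Set 2, of a design that may bind several transcripts, gave 15142, 15246, 20532, 6939 and 16861 in the controls and 9298, 3194, 5137, 6386 and 7096 in the brain-dead animals. On this probe set control animal 4 was the low one, below brain-dead animals 1 and 5, and control animal 2 lay among the rest of its group. Set 2 fell by 1.27 ± 0.33 (limma with Benjamini-Hochberg, adjusted p = 0.0398, 95% interval -1.97 to -0.56). Its call ended when 1 of control animals 1, 2, 3 and 5 or of brain-dead animals 2, 3, 4 and 5 was left out (limma with Benjamini-Hochberg, adjusted p from 0.0622 to 0.0980), and with sex in the model (0.0558). Over its alternatives the adjusted p ranged from 0.0110 to 0.0980.

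Set 3 of CEBPA gave 4949, 5272, 8118, 2520.5 and 6917 in the controls and 2929, 1028, 1779.7, 2712 and 2785 in the brain-dead animals. Again control animal 4 was lowest of its group, below brain-dead animals 1, 4 and 5, while the remaining 4 controls lay above all brain-dead animals. Set 3 fell by 1.30 ± 0.36 (limma with Benjamini-Hochberg, adjusted p = 0.0476, 95% interval -2.07 to -0.53). Its call ended when any 1 animal other than control animal 4 was left out (limma with Benjamini-Hochberg, adjusted p from 0.0503 to 0.114), and with sex in the model (0.0640). Without control animal 4 the change was -1.56 (limma with Benjamini-Hochberg, adjusted p = 0.0153), and over its alternatives the adjusted p ranged from 0.0140 to 0.114.

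The animal that overlapped the other group thus depended on the source sequence. As a description made after the values were seen, and with no test, the log2 values were averaged over the 2 source sequences and set against the control mean. Control animals 1 to 5 then lay at 0.28, -0.51, 0.55, -0.49 and 0.17, and brain-dead animals 1 to 5 at -0.64, -1.82, -1.57, -1.14 and -1.11. On this average the lowest control, at -0.51, lay a little above the highest brain-dead animal, at -0.64. Each low control was low on 1 source sequence only, so the averaging itself drew it up, and on every probe set the groups overlap. How often other genes would separate after such averaging was not examined. The brain-dead mean was -1.26 ± 0.45 (SD, n = 5) with a control SD of 0.48. Brain-dead animal 1 was the one nearest to the controls.

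Among 9835 genes, each represented by its probe set with the highest mean, CEBPA had the 362nd lowest change and FOXA1 the 389th lowest. FOXA2 had the 594th highest and CEBPD the 597th highest, and CEBPB lay near the middle. The median change of all genes was -0.007 on the log2 scale.

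**Figure D2:**
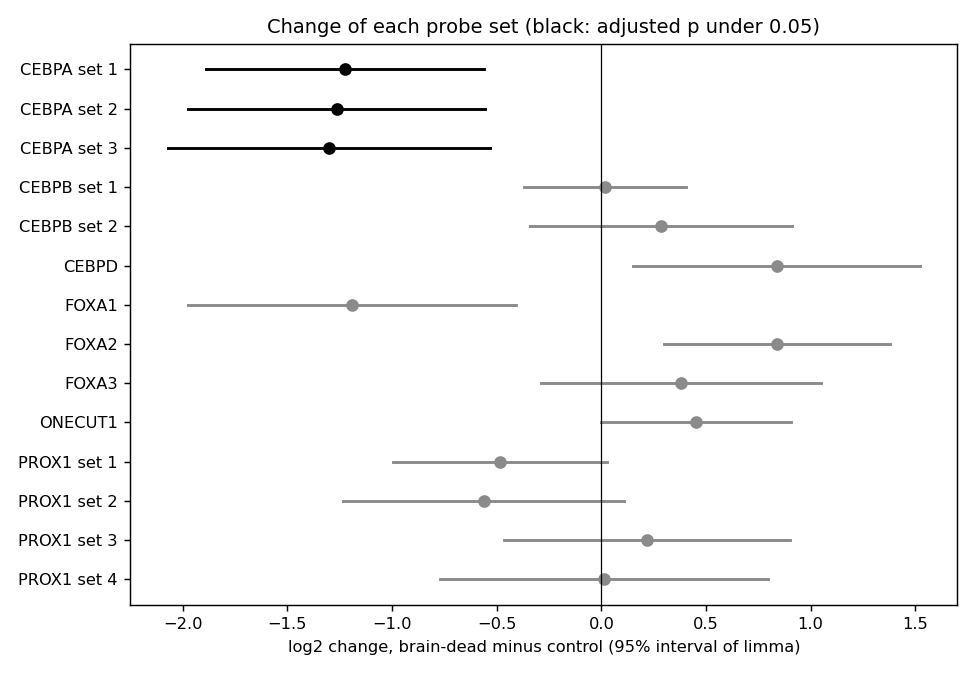
Log2 change of each probe set, brain-dead minus control (x axis), with its 95% interval from limma as a line (n = 5 animals per group). The 3 probe sets of CEBPA, in black, have an adjusted p under 0.05, at changes of -1.23, -1.27 and -1.30, and the grey ones do not.

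CEBPB, which with CEBPD takes over many C/EBP sites in acute-phase liver, had a pair of probe sets. Set 1, which may bind several transcripts, gave 28910.3, 42929, 29037, 33910.1 and 40357 in control animals 1 to 5 and 31851, 33411, 32618, 44307 and 34104 in brain-dead animals 1 to 5. The groups covered nearly the same range. The difference was 0.02 ± 0.18 on the log2 scale (limma with Benjamini-Hochberg, adjusted p = 0.967), and its 95% interval of -0.37 to 0.41 does not reach the size of the fall of CEBPA. Set 2 gave 6669, 13747, 16571, 12599 and 23239 in the controls and 12907, 17679, 14652, 21631 and 16524 in the brain-dead animals. Control animal 1 was lowest and control animal 5 highest of all 10, and the difference was 0.29 ± 0.29 (limma with Benjamini-Hochberg, adjusted p = 0.597, 95% interval -0.34 to 0.91).

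CEBPD gave 5304, 12568, 13616, 13360.3 and 23356 in control animals 1 to 5 and 16366, 24124, 24099.8, 24977 and 21712 in brain-dead animals 1 to 5. All brain-dead animals lay above 4 of the 5 controls, and control animal 5 lay among them. The difference of 0.84 ± 0.32 on the log2 scale did not pass (limma with Benjamini-Hochberg, adjusted p = 0.131, 95% interval 0.15 to 1.52). Controls ranged 4.40-fold from lowest to highest and brain-dead animals 1.53-fold, with SDs of 0.77 and 0.25 on the log2 scale. Control animal 1 was the lowest of the 10 arrays on CEBPD as well as on set 2 of CEBPB and on FOXA2.

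FOXA1, whose single probe set may bind several transcripts, gave 6282, 5959, 5857, 2663 and 4868 in control animals 1 to 5 and 2052, 5100.4, 1618, 2254 and 1199 in brain-dead animals 1 to 5. Brain-dead animal 2 lay among the controls, and the other 4 brain-dead animals lay below every control, of which animal 4 was lowest. The change was -1.19 ± 0.36 on the log2 scale and did not pass (limma with Benjamini-Hochberg, adjusted p = 0.0689, 95% interval -1.97 to -0.41). Without brain-dead animal 2 it was past the threshold (limma with Benjamini-Hochberg, adjusted p = 0.0154), as it was without control animal 4 (0.0298) and with array weights (0.0364), and over its alternatives it ranged up to 0.186. The order of the animals differed between FOXA1 and CEBPA. Brain-dead animal 2 had the lowest signal of all 10 animals on sets 2 and 3 of CEBPA and the highest signal of its group on FOXA1.

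FOXA2 was higher where FOXA1 was lower. Its signals were 1827, 3625, 2276, 3031 and 2196 in control animals 1 to 5 and 3920.1, 3361, 3993, 6096 and 5719 in brain-dead animals 1 to 5. Control animal 2 lay above brain-dead animal 2, and apart from that pair each brain-dead animal was above each control. The difference was 0.84 ± 0.25 on the log2 scale (limma with Benjamini-Hochberg, adjusted p = 0.0647, 95% interval 0.30 to 1.38) and did not pass. It passed when the filter was set at the 75th percentile (limma with Benjamini-Hochberg, adjusted p = 0.0472) and with array weights (0.0433), and over its alternatives it ranged up to 0.151.

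FOXA3 gave 4666, 1632, 2372, 1949 and 3769 in the controls and 2943, 5262, 2486, 3622 and 3575 in the brain-dead animals, groups that overlap widely. Its difference was 0.38 ± 0.31 (limma with Benjamini-Hochberg, adjusted p = 0.492, 95% interval -0.29 to 1.05). The 3 FOXA genes thus had changes of different sign on these arrays, of which none passed the test.

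ONECUT1 gave 4655, 3055, 3725, 3913 and 3521 in control animals 1 to 5 and 5445, 4297, 4025, 6827 and 5425 in brain-dead animals 1 to 5. Control animal 1 lay above brain-dead animals 2 and 3, and the other controls lay below every brain-dead animal. The difference was 0.45 ± 0.21 on the log2 scale (limma with Benjamini-Hochberg, adjusted p = 0.214, 95% interval -0.003 to 0.91).

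PROX1 had 4 probe sets, a bright pair and a dim pair. Set 1 gave 17445, 12143, 10071, 9996 and 11886 in the controls and 9747, 9556, 10538, 9061 and 5337 in the brain-dead animals. Brain-dead animal 3 was the one above any control, and brain-dead animal 5 was lowest. The changes of sets 1 and 2 were -0.48 ± 0.24 and -0.56 ± 0.31 (limma with Benjamini-Hochberg, adjusted p = 0.236 and 0.296). Sets 3 and 4, with signals of 272 to 1588, had changes of 0.22 ± 0.32 and 0.01 ± 0.36 (limma with Benjamini-Hochberg, adjusted p = 0.721 and 0.991), whose sign turned under some alternatives. On all 4 probe sets control animal 1 was the highest control and brain-dead animal 3 the highest brain-dead animal. Lymphatic endothelial markers, which mark another cell type with PROX1, had a summed signal of 3572 to 7099 in controls and 4037 to 6907 in brain-dead animals, with 4 of 4 on the array and none of the 3 tested past the threshold (0 at an unadjusted p under 0.05 in limma). The largest part of this sum came from LYVE1, at 2693 to 5444 in controls and 2588 to 5162 in brain-dead animals. The sum therefore mainly follows that gene and cannot be read as lymphatic endothelium alone. Podoplanin (PDPN) was at 145 to 422 in controls and 58.4 to 231 in brain-dead animals, and no marker was listed at 0.

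**Figure D3:**
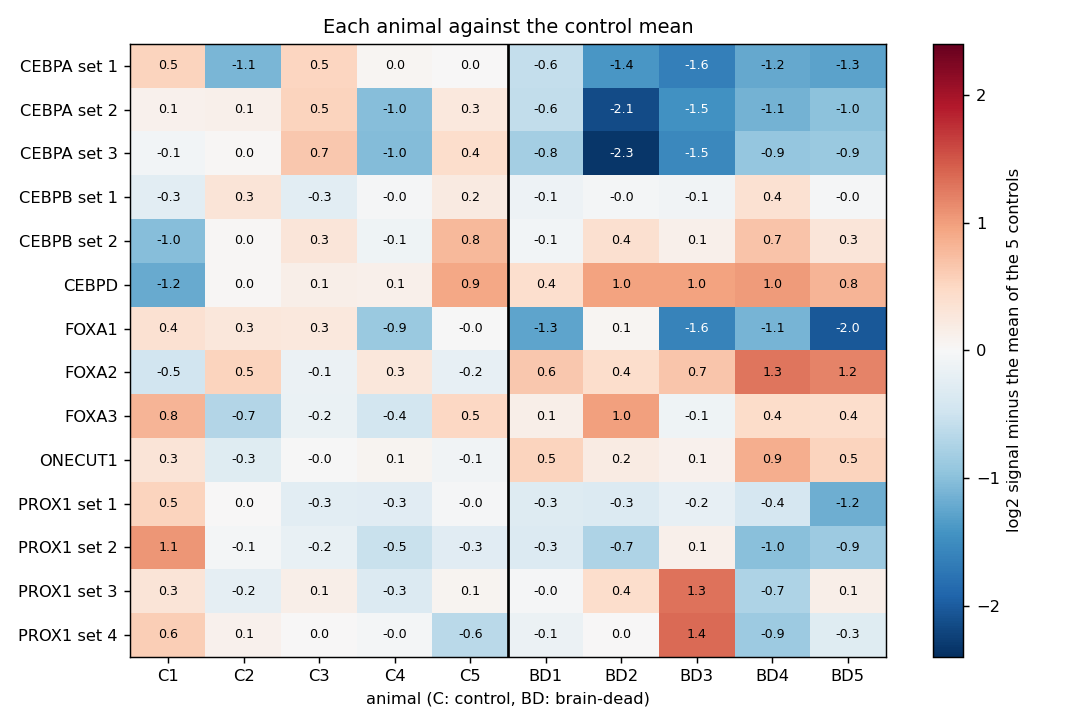
Log2 signal of each animal minus the mean of the 5 controls (colour and printed value), probe sets in rows and animals in columns, controls (C) left of the black line and brain-dead animals (BD) right of it. The 3 CEBPA probe sets are below 0 in all brain-dead animals, lowest at -2.3 in brain-dead animal 2, whose FOXA1 value is 0.1.

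Sex was not equally divided between the groups, so the change was also taken within each sex. For CEBPA set 1 it was -0.97 in females and -1.41 in males, for set 2 -1.62 and -0.81, and for set 3 -1.78 and -0.81. CEBPD was higher by 1.04 in females and 0.42 in males, FOXA1 differed by -0.90 and -1.14, and FOXA2 was higher by 0.56 and 1.01. Each of these groups holds 2 or 3 animals. The interaction of group with sex passed in 0 of the 14 probe sets, and in 0% of all 26653 tested (limma with Benjamini-Hochberg, adjusted p = 0.999833 for each member), with 0 members and 1015 of all probe sets at an unadjusted p under 0.05.

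Age was examined after the values of CEBPA had been seen, in the 9 animals with an age given. Within the controls, set 3 of CEBPA ran against age, from 8118 at 4 years to 2520.5 at 20 years. With group, sex and age in one model, the slope of log2 signal per year was -0.11 ± 0.022 on set 3, -0.094 ± 0.022 on set 2 and -0.010 ± 0.034 on set 1. None of these terms passed (limma with Benjamini-Hochberg, adjusted p = 0.942, 0.942 and 1.00), nor did that of any other probe set (0% of 26653). At an unadjusted p under 0.05, 2 of 14 member probe sets and 1361 of all probe sets had an age term. With sex and age in the model, sets 2 and 3 of CEBPA kept their call and set 1 did not (limma with Benjamini-Hochberg, adjusted p = 0.112).

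**Figure D4:**
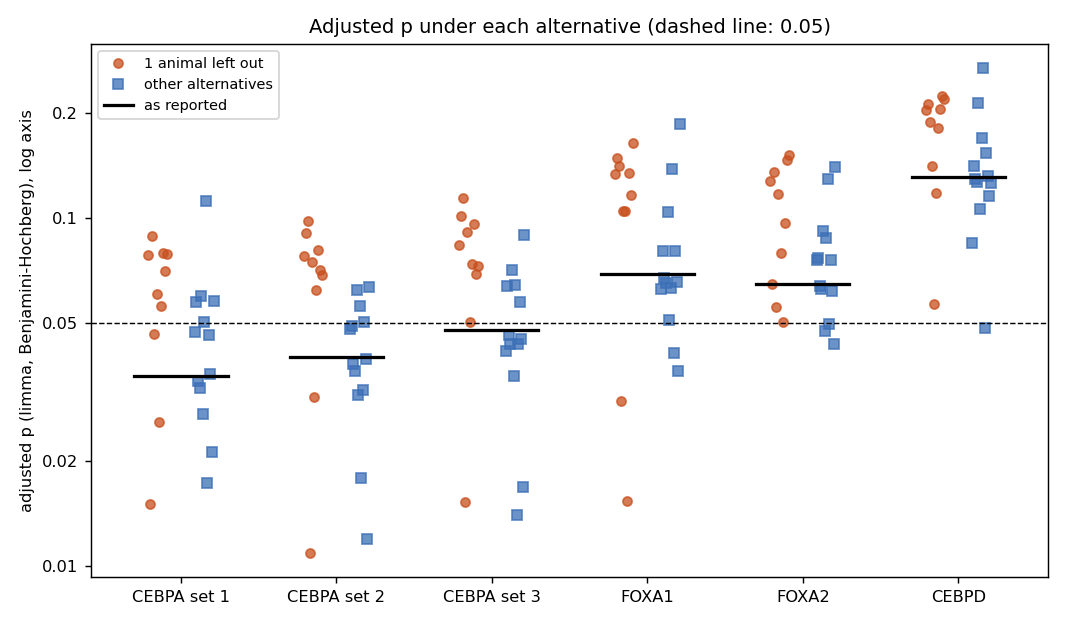
Adjusted p from limma (Benjamini-Hochberg, log y axis) of the 3 CEBPA probe sets, FOXA1, FOXA2 and CEBPD as reported (black bar), with 1 animal left out (orange circles) and under the other alternatives (blue squares). The dashed line marks 0.05. The bars of CEBPA lie under the line at 0.0351, 0.0398 and 0.0476, with alternatives on both sides of it, and those of FOXA1, FOXA2 and CEBPD lie above it.

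Bulk RNA mixes the cells of the organ, so fewer hepatocytes and less RNA per hepatocyte cannot be told apart here. A marker is called on the array when a probe set carries its symbol alone, so the others may be on it without a name. Of 9 hepatocyte markers, 4 were on the array: alpha-1-antitrypsin (SERPINA1), APOA1, fetuin (AHSG) and APOB. All were tested, none passed by its representative probe set (2 lay lower at an unadjusted p under 0.05 in limma) and none was listed at 0. SERPINA1 had 6 probe sets with changes from -1.15 to 1.17, of which 1 rose and 0 fell. The summed signal of the 4 markers was 306843 to 383160 in controls and 255705 to 303192 in brain-dead animals, ranges that do not overlap. SERPINA1, a protein secreted by hepatocytes, was at 122214 to 153447 in controls and 115738 to 133390 in brain-dead animals. In the same order APOA1 was at 100128 to 127813 and 82995 to 101538, and APOB at 225 to 441 and 169 to 383. AHSG, at 78882.5 to 101645 and 55680 to 75468, did not overlap. Of 10 neutrophil and monocyte markers 8 were on the array and 6 tested, of which 2 rose, against 2.90% of all 9835 genes, and 4 did not pass. All 8 summed to 3823 to 18739 in controls and 18948.5 to 67224 in brain-dead animals, lowest in control animal 1 and highest in brain-dead animal 5. S100A8 and S100A9 were those that rose. VCAN, CSF3R, LYZ and FPR1 had changes of 1.62, 0.76, 0.49 and -0.26 on their representatives and did not pass. Of the 6 tested, 4 lay higher and 0 lower at an unadjusted p under 0.05 in limma. VCAN had 5 probe sets with changes from 0.95 to 1.69, of which 3 rose. Below the filter, the granule enzyme MPO stayed at 62.3 to 186 over all animals. S100A12, also below it, was at 21.3 to 78.8 in controls and 103 to 343 in brain-dead animals, without overlap. No marker was listed at 0. Kupffer cell and macrophage markers, 7 of 8 on the array, summed to 41829 to 71683 in controls and 26358 to 67904 in brain-dead animals, and cholangiocyte markers, 6 of 7, to 1480.3 to 2684 and 1060.4 to 2738. Blood and sinusoidal endothelial markers, with 6 of 6 tested and none past the threshold, lay lower by a median of -0.52, and 5 of the 6 were below 0 (2 at an unadjusted p under 0.05 in limma, VWF at -1.86 and PECAM1 at -0.76). Their summed signal was 16084 to 30328 in controls and 13412 to 22258 in brain-dead animals. The part of these cell types in the change of CEBPA or of any other factor was not tested.

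C/EBP relatives and partners came next, as a list of 8 genes with 6 tested. None passed by its representative probe set (1 lay higher at an unadjusted p under 0.05 in limma), where 2.90% of all 9835 genes rose and 3.87% fell, and the median change was 0.23. ATF4, a stress-induced bZIP partner, had a change of 0.67 ± 0.26 and CEBPG, a C/EBP with little activating function of its own, -0.14 ± 0.28. TRIB2, a pseudokinase that directs CEBPA protein to degradation, was picked with its values known. Its representative gave 3073, 1853, 2218, 2339 and 2648 in the controls and 4256, 1871, 2836, 4423 and 8637 in the brain-dead animals, with overlapping groups and a change of 0.69 ± 0.34 (limma with Benjamini-Hochberg, adjusted p = 0.240). Of its 4 probe sets the dimmest pair rose, by 1.26 ± 0.35 and 1.54 ± 0.42 (limma with Benjamini-Hochberg, adjusted p = 0.0472 and 0.0463), and the other pair did not pass. TRIB1, which acts on CEBPA in the same way, had a change of -0.36 ± 0.36 and did not pass.

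Of 20 other transcription factors of hepatocytes 16 were tested, and 1 rose, 0 fell and 15 did not pass (2 lay higher and 4 lower at an unadjusted p under 0.05 in limma), with a median change of -0.19. Among all 9835 genes 2.90% rose and 3.87% fell. The one that rose was GATA4, a zinc finger factor of early liver development. It gave 801, 684, 678, 952 and 1792 in the controls and 1761, 2564, 1631, 1652 and 3684 in the brain-dead animals, with control animal 5 alone among the brain-dead values. GATA4 rose by 1.23 ± 0.31 on the log2 scale (limma with Benjamini-Hochberg, adjusted p = 0.0374), and its other probe sets rose by 1.16 and 1.69. The call ended when 1 of control animals 1, 2 and 3 or of brain-dead animals 3, 4 and 5 was left out (limma with Benjamini-Hochberg, adjusted p from 0.0515 to 0.0959, range over its alternatives 0.0101 to 0.0959). NFIB, a nuclear factor I protein picked with its values known, had a change of -1.03 ± 0.36 on its representative (limma with Benjamini-Hochberg, adjusted p = 0.109), while 2 of its other 4 probe sets fell, by 1.15 and 1.53. All 5 lay below 0. NR0B2 (SHP), a corepressor induced by bile acids, and NR1H4 (FXR), the bile acid receptor, had changes of -0.73 ± 0.33 and 0.43 ± 0.22 and did not pass.

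Genes of the signalling that acts on CEBPB and CEBPD gave the largest share of calls among the lists. All lists were chosen with earlier results of these data known, so this share is a description only. Of 14 genes 11 were tested, 5 rose, 0 fell and 6 did not pass (6 lay higher and 1 lower at an unadjusted p under 0.05 in limma), and the median change was 0.87. Over all 9835 genes 2.90% rose and 3.87% fell. SOCS3, the feedback inhibitor of IL-6 signalling, gave 288, 458, 343, 363 and 442 in the controls and 2089, 657, 2917, 1818 and 1997 in the brain-dead animals. The groups did not overlap, brain-dead animal 2 being nearest to the controls, and the rise of 2.19 ± 0.34 was 4.58-fold (limma with Benjamini-Hochberg, adjusted p = 0.00450). IL6 itself gave 160.0, 171, 499, 254 and 108 in the controls and 529, 2797, 1728, 399 and 1327 in the brain-dead animals, with control animal 3 above brain-dead animal 4. It rose by 2.36 ± 0.53 (limma with Benjamini-Hochberg, adjusted p = 0.0226), a call that ended when 1 of control animals 1 and 2 or of brain-dead animals 3 and 5 was left out (0.0528 to 0.0588, range over its alternatives 0.0162 to 0.0588). Some control signals of IL6 lay under the array medians of 175 to 227, and with a pseudocount of 64 the change was 2.05. A second probe set of IL6 had a change of 1.58, not past the threshold. The animal with the most IL6, brain-dead animal 2, was thus the one with the least SOCS3 in its group.

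IL1B, the cytokine interleukin-1 beta, gave 349, 812, 678, 678 and 1136 in the controls and 4089, 6759.8, 3517, 2445 and 1502 in the brain-dead animals. The groups did not overlap, and all 3 of its probe sets rose, the representative by 2.25 ± 0.39 (limma with Benjamini-Hochberg, adjusted p = 0.00801). NFKB1, a subunit of NF-kB, and OSMR, the oncostatin M receptor, rose by 0.99 ± 0.26 and 0.87 ± 0.23 (limma with Benjamini-Hochberg, adjusted p = 0.0430 and 0.0421). Of their other probe sets, 1 of NFKB1 and 1 of OSMR rose, by 0.93 and 1.22, and the third of NFKB1, at 0.02, did not pass. The call of NFKB1 ended when any 1 animal other than control animal 5 and brain-dead animal 4 was left out (limma with Benjamini-Hochberg, adjusted p from 0.0569 to 0.109), and that of OSMR when 1 of control animals 1, 2 and 3 or of brain-dead animals 1, 3, 4 and 5 was left out (0.0585 to 0.103). STAT3, the factor that carries the IL-6 signal to CEBPB and CEBPD, gave 8552, 3619, 3092, 7138 and 8642 in the controls and 11097, 8704, 14162, 10137 and 16029 in the brain-dead animals. Every brain-dead animal lay above every control, brain-dead animal 2 by little, and the difference of 1.05 ± 0.32 did not pass (limma with Benjamini-Hochberg, adjusted p = 0.0683). IL6R, the ligand-binding receptor of hepatocytes, had a change of -0.64 ± 0.21 and did not pass. The count of 5 was between 2 and 5 with 1 animal left out, lowest when control animal 1 or 2 or brain-dead animal 3 or 5 was the one.

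**Figure D5:**
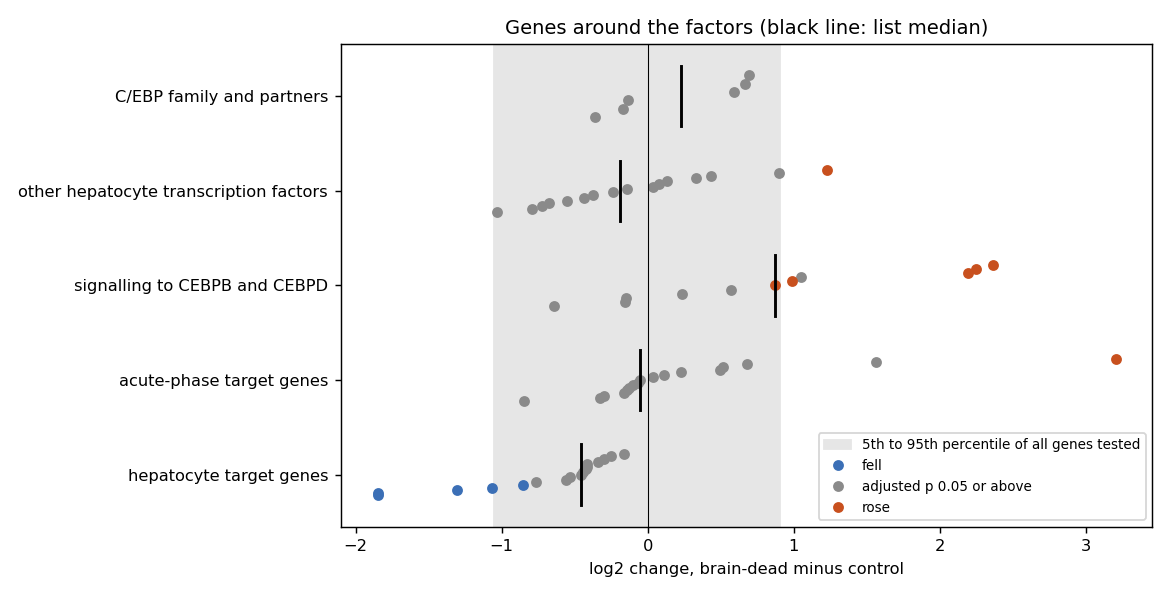
Log2 change, brain-dead minus control (x axis), of each gene tested in 5 lists around the factors, 1 probe set per gene, with genes that rose in orange, genes that fell in blue and the others in grey. The black line is the list median, and the shaded band holds the range from the 5th to the 95th percentile of all 9835 genes, -1.05 to 0.90. All 17 representatives of the hepatocyte target list lie below 0.

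Acute-phase genes that C/EBP proteins drive formed a list of 20 genes, 17 of them tested. By their representatives 1 rose, 0 fell and 16 did not pass (4 lay higher and 1 lower at an unadjusted p under 0.05 in limma), with a median change of -0.06. The shares among all 9835 genes were 2.90% higher and 3.87% lower. LCN2, an iron-siderophore-binding lipocalin, gave 2512, 2550.2, 5859.5, 1247 and 2328 in the controls and 7318, 31533, 16823, 32803 and 56576 in the brain-dead animals. The groups did not overlap, and it rose 9.21-fold, by 3.20 ± 0.50 on the log2 scale (limma with Benjamini-Hochberg, adjusted p = 0.00499). SAA1, serum amyloid A and an inducible acute-phase protein, gave 8122, 33981, 19529, 86424 and 43667 in the controls and 92486, 89992, 87382, 79377 and 80024 in the brain-dead animals. The brain-dead animals lay close together at the level of control animal 4, and the difference of 1.57 ± 0.46 did not pass (limma with Benjamini-Hochberg, adjusted p = 0.0624). SAA2, a near-identical gene whose transcript may bind the same probes, had a change of -0.84 ± 0.23 (limma with Benjamini-Hochberg, adjusted p = 0.0502), with every brain-dead animal below every control, and its other probe set fell by 0.98 (0.0454). The fibrinogen chains FGA, FGB and FGG, haptoglobin (HP) and C-reactive protein (CRP) had changes of -0.15, -0.16, -0.06, -0.13 and 0.50 and did not pass. Mean control signals of FGA, FGB, FGG and HP were 123839 to 146435, and whether signals this high could rise further was not tested. LCN2 and SAA1 are also made by neutrophils or macrophages, whose markers are given above.

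Metabolic and plasma protein genes that CEBPA and the other hepatocyte factors drive formed a list of 28 genes, 17 of them tested. By their representative probe sets 0 rose (0 lay higher and 11 lower at an unadjusted p under 0.05 in limma), 5 fell and 12 did not pass. Of all 9835 genes 3.87% fell and 2.90% rose. This list too was chosen with earlier results of these data known, so its counts are a description only. All 17 representatives had changes below 0, with a median of -0.45 against -0.007 for all genes, and APOA1, APOB and SERPINA1 are also among the hepatocyte markers above. PKLR, the liver pyruvate kinase, gave 913, 741, 1569, 462 and 441 in the controls and 151, 371, 148, 287 and 149.9 in the brain-dead animals. The groups did not overlap, and it fell by 1.85 ± 0.39 on the log2 scale, a 3.60-fold difference (limma with Benjamini-Hochberg, adjusted p = 0.0178, and 0.0771 without both animals numbered 1). PKLR signals in the brain-dead animals reached below the array medians of 175 to 227, so the size of the fall is uncertain. With a pseudocount of 64 the change was -1.57. G6PC1, the catalytic subunit of glucose-6-phosphatase, gave 52199.8, 42827, 44178, 30077 and 40812 in the controls and 2679, 27146, 12119, 25253 and 9011 in the brain-dead animals. It too had no overlap, with brain-dead animal 1 far below the rest, and it fell by 1.85 ± 0.50 (limma with Benjamini-Hochberg, adjusted p = 0.0460). Its call ended when 1 of control animals 1, 2, 3 and 5 or of brain-dead animals 3 and 5 was left out (limma with Benjamini-Hochberg, adjusted p from 0.0735 to 0.108), and its other probe sets, at -1.51 and 0.46, did not pass.

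OTC, ornithine transcarbamylase of the urea cycle, gave 16945, 22095, 14134, 14011 and 15643 in the controls and 9939, 5709.6, 7082, 7524 and 4104 in the brain-dead animals. The groups did not overlap, and OTC fell by 1.31 ± 0.25 (limma with Benjamini-Hochberg, adjusted p = 0.0116), a call kept under all 23 alternatives, while its other, dimmer probe set, at 0.21, did not pass. GYS2, the liver glycogen synthase, and ABCC2, a canalicular exporter of bile conjugates, fell by 1.06 ± 0.28 and 0.85 ± 0.22 (limma with Benjamini-Hochberg, adjusted p = 0.0411 and 0.0420), and a further probe set of ABCC2, at -0.39, did not pass. The call of GYS2 ended when any 1 animal other than control animal 3 and brain-dead animal 2 was left out (limma with Benjamini-Hochberg, adjusted p from 0.0541 to 0.0973), and that of ABCC2 when any 1 other than control animals 3 and 4 and brain-dead animal 1 was (0.0667 to 0.106). The count of 5 was between 2 and 5 with 1 animal left out, and 2 when 1 of control animals 1, 2 and 5 or of brain-dead animals 3 and 5 was left out. PCK1, which controls gluconeogenesis, TAT, a tyrosine-degrading enzyme, and the clotting factor F9 had changes of -0.41 ± 0.16, -0.53 ± 0.24 and -0.45 ± 0.18 and did not pass.

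Genes whose profile over the 10 arrays was most like that of each factor were found by Pearson's r of log2 signals, 1 probe set per gene. These r values describe arrays that share their groups and scaling. For CEBPA they were INPP4A (0.940), a phosphoinositide phosphatase, BICRAL (0.920), RASGRP2 (0.891), NFE2L1 (0.891), a bZIP factor of proteasome genes, and RCOR3 (0.887). None of these 5 passed the test between the groups, with changes from -0.86 to -0.42. Within the groups, after each group's mean was taken off, r was 0.899 for INPP4A and 0.683 for RCOR3.

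The closest genes to FOXA1 were PEPD (0.970), GRB14 (0.954) and PCYT2 (0.954), and to FOXA2 GFUS (0.954), LOC695785 (0.952) and NFKBIB (0.944). CEBPD was most like SRFBP1 (0.962), LOC696949 (0.948) and TUSC1 (0.938), and CEBPB most like ECHDC2 (0.955), PEX16 (0.904) and MLST8 (0.873). For ONECUT1 these were THOC5 (0.946), DCTN5 (0.942) and YARS2 (0.935), for PROX1 NCALD (0.953), ITFG1 (0.952) and ARSD (0.940), and for FOXA3 KLHL20 (0.887), LOC694783 (0.867) and TRIM47 (0.857). No factor was among the closest genes of another.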

How the data were processed

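Liver RNA of 10 animals was hybridised to 1 array each. The authors deposited an intensity per probe set on a linear scale, computed with MAS5 per the submitters' processing notes (version not given in the sources used here). Every array had a 2% trimmed mean of 1000, and array medians lay between 175 and 227. Of 52865 probe sets, 99 controls were left out, and the 26653 above the array median on 5 or more arrays were tested. Names came from the platform annotation of 2016, with current symbols from a reference gene table. Of all probe sets 24969 had 1 symbol, 361 had several, and only those with 1 were named.

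Log2 intensities, with no pseudocount and no further normalization, were tested with limma 3.58.1 in R 4.3.3 (lmFit, eBayes with trend, group alone) and Benjamini-Hochberg adjustment over all 26653. "Rose" and "fell" mean an adjusted p under 0.05. Errors are standard errors unless called SD, and intervals are at 95%. A gene was represented by its probe set with the highest mean. Levels of different probe sets are not comparable. The number of arrays limits the precision. Named list genes are the 3 largest changes past the threshold in each list, others being chosen after their values were seen. Members and lists were chosen with earlier results of these data known. Alternatives were quantile normalization, median centring, pseudocounts of 16 and 64, dropping the filter or raising it to the 75th percentile, sex or sex and age in the model (which drops brain-dead animal 3), a replicate block, eBayes without trend or robust, array weights, and leaving out each animal or both animals numbered 1, which had scores of 69.6 and 72.1 on principal component 2, against 26.5 or less for the rest. The fit was tested on simulated data with independent noise and shifts larger than those of the member probe sets. That test therefore does not speak to changes of their size. Plots were made in Python 3.11.15 (matplotlib 3.10.9).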

Additional observations from a re-analysis of the deposited data

Results flagged for a closer look

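Of 28 groups of 5 log2 values (14 probe sets in 2 groups), 3 held an animal far from the other 4 of its group, where chance gives about 1 in 20. On set 2 of CEBPA, control animal 4 lay at 12.76, and the other controls at 13.89 to 14.33. On set 1 of CEBPB, brain-dead animal 4 lay at 15.44, and the other brain-dead animals at 14.96 to 15.06. On set 1 of PROX1, brain-dead animal 5 lay at 12.38, and the others at 13.15 to 13.36.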

How the results depend on the processing

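All 3 CEBPA probe sets kept their direction under all 23 alternatives, and their calls ended under 12, 12 and 14 of them. The count of member probe sets past the threshold, 3 as reported, was 1 with median centring and with eBayes without trend, and 0 without a filter, with sex in the model and without both animals numbered 1. It was 5 with array weights, and 0 to 4 with 1 animal left out. The labels' replicate numbers were taken not to pair the animals: arrays of the same number correlated at 0.380, 0.064, 0.128, 0.089 and 0.128 after group means were taken off, and only those numbered 1 matched each other best. With a replicate block 6 passed, the 3 CEBPA probe sets, FOXA1, FOXA2 and CEBPD (limma, Benjamini-Hochberg adjusted p = 0.0484 for CEBPD). Over all probe sets, 1627 as reported, 1056 passed without a filter, 1035 with sex and age in the model, 3013 with a replicate block and 674 without both animals numbered 1. With 1 animal left out the count was 660 to 2289. Quantile normalization and median centring moved the median change by 0.02 and 0.07. PROX1 sets 3 and 4 and CEBPB set 1 took both signs over the alternatives, none past the threshold, and PROX1 sets 3 and 4 could not be tested with a filter at the 75th percentile. The interaction with sex passed in 0 member probe sets under each alternative that could be fitted (limma, 2 at an unadjusted p under 0.05 without both animals numbered 1). Leaving out 1 animal kept the filter of all 10 arrays. The cause of these shifts was not tested. Array number and signal over background limit what can be seen, and PROX1 sets 3 and 4 are dim. So are PKLR, APOB and, in the controls, IL6 and SOCS3.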
